A study of Homo sapiens with 18 samples.

Results

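ATAC-seq listed 750 stretches of chromatin as open in both A2780 and Acis cells after cisplatin and in neither line without it. A2780 is an ovarian carcinoma line that is sensitive to cisplatin, and Acis (A2780cis) is its resistant derivative, kept resistant by 1 µM cisplatin every 3 passages. Each line was either left untreated or given 200 µM cisplatin for 3 h, so both the treated and the untreated Acis cells carry a history of exposure to the drug, and each line stands for 1 culture history. They were chosen by their presence in the lists and by no other value: they are the peaks of the A2780 cisplatin list that overlap a peak of the Acis cisplatin list by at least 1 bp and no peak of either control list. This is 2.33% of the 32159 peaks listed in A2780 cells after cisplatin. One list of peaks was given per condition, built from 3 replicates for each control and from 2 for each cisplatin condition, so a change of accessibility cannot be told apart from the number of replicates that a peak had to pass. No list was replicated and no test was made on the peaks. RNA-seq counts of the same 4 groups, with 3 libraries each, were not used to choose the peaks and are the only measure tested here. Total RNA counts were 4130644 to 5072216 per library. For ATAC-seq the authors give only a minimum of aligned reads per sample, so the depth behind each peak list is unknown.

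Cisplatin forms bulky adducts on DNA, mostly joining neighbouring guanines, which stall RNA polymerase and are removed by nucleotide excision repair. ATAC-seq marks DNA that a transposase can reach, which is mainly found at promoters, at enhancers and at sites of the insulator protein CTCF. Treated cells activate the p53 pathway, which drives genes of cell cycle arrest and cell death, and stress kinases, which act through AP-1, a dimer of JUN and FOS proteins. These lines have little of the usual epithelial profile. Of 8 epithelial and ovarian markers, 5 (KRT19, CDH1, PAX8, WT1 and MUC16) have no row in the RNA table, and KRT18 had 18.4 to 39.9 normalized counts in A2780 and 133 to 151 in Acis libraries. Among markers of other cells, PTPRC, PECAM1 and CD3E have no row, while both fibrillar collagen genes listed were found. COL3A1 had 1400 to 1850 normalized counts in A2780 and 3380 to 4010 in Acis libraries, and COL1A1 had 612 to 906 in A2780 and 4.94 to 22.5 in Acis libraries.

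The reference sequences of 7 of the 750 peaks are printed as examples. They were chosen after the values were seen. Sequences are from the plus strand of hg38, over the whole peak, or over 300 bp centred on the summit where the peak is wider. The peak within CDKN1A lies at chr6:36680463-36680717, and the BBC3 window at chr19:47231332-47231631, the SESN2 window at chr1:28260142-28260441 and the INSIG1 window at chr7:155297090-155297389 lie near the starts of genes with more RNA after cisplatin. The BIRC6 window at chr2:32358162-32358461 lies near the start of a gene with less. The GNAO1 peak at chr16:56203141-56203434 is in an intron, and the LINC-PINT peak at chr7:130912119-130912401 is in a noncoding exon. Capitals mark AP-1 motifs (TGANTCA) in CDKN1A, GNAO1 and LINC-PINT, an E-box (CACGTG) in BBC3, SP/KLF motifs (GGGCGG) in SESN2 and INSIG1 and an NFY motif (CCAAT) in BIRC6, each found on either strand. Other motifs that were searched also occur in these sequences and are not marked, for example CCAAT in SESN2 and GNAO1.
CDKN1A: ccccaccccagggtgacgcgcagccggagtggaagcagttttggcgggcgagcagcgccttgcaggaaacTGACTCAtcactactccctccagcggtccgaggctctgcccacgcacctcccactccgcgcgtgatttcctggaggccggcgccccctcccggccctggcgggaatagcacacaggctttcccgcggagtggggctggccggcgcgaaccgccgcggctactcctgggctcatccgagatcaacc
BBC3: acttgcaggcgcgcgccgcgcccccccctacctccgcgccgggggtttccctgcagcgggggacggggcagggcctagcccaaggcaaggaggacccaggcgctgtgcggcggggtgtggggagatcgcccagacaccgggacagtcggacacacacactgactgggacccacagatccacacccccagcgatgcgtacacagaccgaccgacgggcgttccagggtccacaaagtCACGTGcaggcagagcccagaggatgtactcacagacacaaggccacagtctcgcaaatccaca
SESN2: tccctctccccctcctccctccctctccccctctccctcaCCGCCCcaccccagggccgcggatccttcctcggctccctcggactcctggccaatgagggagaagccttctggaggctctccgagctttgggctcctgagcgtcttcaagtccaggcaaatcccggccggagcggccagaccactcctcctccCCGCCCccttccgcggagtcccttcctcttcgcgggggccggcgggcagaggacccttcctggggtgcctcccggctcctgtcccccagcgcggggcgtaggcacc
INSIG1: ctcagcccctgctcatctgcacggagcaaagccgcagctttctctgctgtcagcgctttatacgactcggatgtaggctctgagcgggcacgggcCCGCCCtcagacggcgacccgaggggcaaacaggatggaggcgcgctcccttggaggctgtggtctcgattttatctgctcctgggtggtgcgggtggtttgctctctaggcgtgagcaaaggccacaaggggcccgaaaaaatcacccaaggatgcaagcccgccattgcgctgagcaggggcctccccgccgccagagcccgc
BIRC6: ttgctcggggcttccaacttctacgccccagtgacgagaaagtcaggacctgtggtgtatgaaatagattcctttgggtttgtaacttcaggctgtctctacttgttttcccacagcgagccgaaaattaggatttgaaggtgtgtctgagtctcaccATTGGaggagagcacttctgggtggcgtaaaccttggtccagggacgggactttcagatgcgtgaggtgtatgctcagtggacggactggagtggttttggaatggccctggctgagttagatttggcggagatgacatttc
GNAO1: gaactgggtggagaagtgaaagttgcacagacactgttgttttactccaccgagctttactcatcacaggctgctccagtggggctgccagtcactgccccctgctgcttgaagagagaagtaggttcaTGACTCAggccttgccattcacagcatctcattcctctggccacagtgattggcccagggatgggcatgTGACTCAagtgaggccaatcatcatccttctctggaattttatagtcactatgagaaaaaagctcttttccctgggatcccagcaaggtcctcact
LINC-PINT: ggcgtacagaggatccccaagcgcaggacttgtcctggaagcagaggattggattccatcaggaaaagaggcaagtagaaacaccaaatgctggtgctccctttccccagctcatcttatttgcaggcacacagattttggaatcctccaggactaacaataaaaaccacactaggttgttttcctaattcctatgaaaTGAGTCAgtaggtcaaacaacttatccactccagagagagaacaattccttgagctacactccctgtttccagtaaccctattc

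The peaks were weak members of the lists they came from. The fold enrichment that MACS2 gave above the local background ranged from 1.41 to 31.3 in A2780 with a median of 6.6, against a median of 8.79 for the whole A2780 cisplatin list. In Acis it ranged from 1.91 to 27.7 with a median of 7.26, against 11 for the whole list. Of the 750 peaks, 493 (65.7%) had the higher fold enrichment in Acis, and the rank order was related between the lines (Spearman rho 0.712 over 750 peaks, which share local base composition and the way they were called). The median -log10 q was 17.3 in A2780 and 15 in Acis, while the medians of the whole lists were 34.1 and 41.4. In A2780, 93 peaks (12.4%) lay above the median of the list, and in Acis 52 (6.93%) did. These values were part of the listing itself and are given as a description. The median width was 443 bp, with a range of 197 to 2524 bp.

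**Figure D1:**
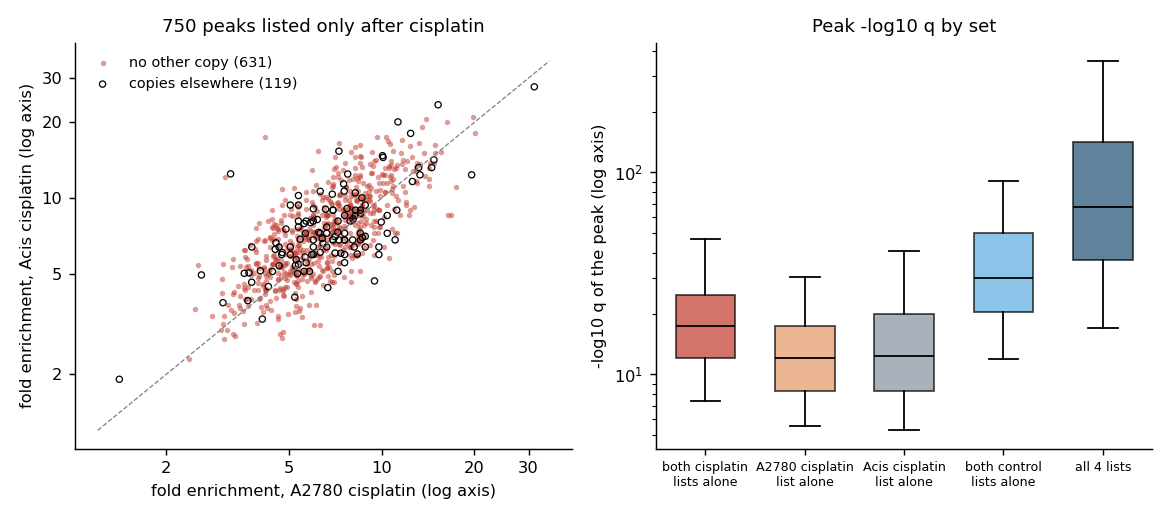
Left, fold enrichment of the 750 peaks in the A2780 cisplatin list (x) and the Acis cisplatin list (y), both on log axes; open circles are the 119 peaks whose central 150 bp have a copy elsewhere in hg38, and the dashed line marks equal values. Right, -log10 q (log axis) of the 750 peaks and of 4 other sets, as the median, quartiles and 5th and 95th percentiles, each read from its own list (the A2780 control list for peaks of both controls alone, the A2780 cisplatin list for peaks of all 4 lists); the 750 peaks have a median of 17.3, and peaks of all 4 lists one of 67.5.

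The shared peaks were part of those gained in each line. Of 5206 A2780 cisplatin peaks absent from both control lists, 14.4% were also in the Acis cisplatin list. Of the 2345 such peaks of the Acis list, 771 (32.9%) overlapped an A2780 cisplatin peak. Peaks of the mirror pattern, present in both control lists and in neither cisplatin list, numbered 490, or 1.4% of the A2780 control list. Peaks of the A2780 cisplatin list alone numbered 4456 and those of the Acis cisplatin list alone 1574.

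Few peaks depended on the margin of the overlap rule. The smallest overlap with an Acis peak was 42 bp, at the start of REPIN1, and the next was 53 bp, in an intergenic stretch of chromosome 19. Among 20727 peaks in both cisplatin lists that a control peak kept out, 1 was kept out by an overlap under 42 bp, which was 2 bp. The nearest miss among peaks of the A2780 cisplatin list alone was 87 bp from an Acis cisplatin peak. Distance to the nearest control peak varied widely: it was 121 bp at the least, in an intron of CCDC26, had a median of 10433 bp, and exceeded 10 kb for 383 peaks (51.1%). It was at most 1 kb for 154 peaks (20.5%).

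The strongest 10 peaks of A2780 included peaks in intergenic DNA, in introns, in an exon and at gene starts. The highest fold enrichment, 31.3 in A2780 and 27.7 in Acis, was at an intergenic peak of chromosome X (109054149 to 109054410) whose central 150 bp have 12 further copies in the genome. Its nearest gene start was that of IRS4, an insulin receptor substrate, with 0 to 4.29 normalized counts over the 12 libraries. Peaks on chromosome 14 (106349106 to 106349425, nearest to LINC00226) and chromosome 7 (142667189 to 142667608) also had copies, 11 and 3 of them. The other 7 had none.

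Of those 7, a peak in an intron of the lncRNA gene ENSG00000247134 on chromosome 8 had a fold enrichment of 20.1 in A2780 and 18.1 in Acis. A peak within an exon of ILDR2 on chromosome 1 (166910303 to 166910670) had 19.7 and 21.1. The GNAO1 peak printed above, in the gene of a G protein alpha subunit of neurons, had 17.5 and 11.1 and carried 2 AP-1 motifs. Peaks at the starts of CFAP95-DT and of NEUROD4, which encodes a neurogenic transcription factor, had 16.8 and 16.3 in A2780, and 8.54 and 20.1 in Acis. A peak in an intron of MAPK14, the gene of the stress kinase p38 alpha, had 15.5 and 15.3. TADA1, a subunit of a histone acetyltransferase complex and the start nearest to the ILDR2 peak, had log2 fold changes of -0.05 in A2780 and 0.11 in Acis (adjusted p = 0.598 and 0.373 in edgeR's quasi-likelihood test), and its groups overlapped in both lines.

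The authors let each read align at up to 10 places, so other copies of each sequence were counted. Among all 750 peaks, 119 (15.9%) had a copy of their central 150 bp elsewhere, at 90% identity over 90% of the length or more, against 15.2% of the A2780 cisplatin list and 13.4% of peaks in all 4 lists. The share was 19.8% for peaks of the A2780 cisplatin list alone, 16.5% for the Acis cisplatin list alone and 20.8% for both controls alone. Among the 20 of the 750 peaks with the highest fold enrichment, 5 had a copy. The part of copies in the values was not tested.

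The peaks were spread over gene starts, introns and intergenic DNA. A position within 1 kb of the start of a protein-coding or lncRNA gene held for 229 (30.5%; 95% Wilson interval 27.3 to 33.9%, for counting error only). This share was 39.2% in the whole A2780 cisplatin list, 51.4% for peaks of all 4 lists, 23.2% for peaks of the A2780 cisplatin list alone, 16.3% for peaks of the Acis cisplatin list alone and 10.4% for peaks of both controls alone. Introns held 205 (27.3%), exons 89 (11.9%), the 10 kb downstream of a gene 46 (6.13%) and intergenic DNA 181 (24.1%).  Chromosome 8 held 43 peaks (5.73%, against 3.82% of the A2780 cisplatin list), chromosome 18 held 25 (3.33% against 2.07%), and chromosome 13 held 4 (0.533% against 1.94%). For these chromosomes, in that order, peaks of the A2780 cisplatin list alone had 3.34%, 3.28% and 2.69%. Those of the Acis cisplatin list alone had 8.51%, 2.73% and 1.27%, and those of both controls alone 4.49%, 1.63% and 0.204%.

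At gene starts, the peaks sat beside the start more often than on it. Of the 229, 68 (29.7%) covered the annotated start, 35 (15.3%) lay upstream and 126 (55.0%) lay downstream, inside the gene. Among 9127 gene-start peaks of all 4 lists, 78.2% covered the start and 12.2% lay downstream. Peaks of the A2780 cisplatin list alone resembled the 750, with 57.0% downstream, whereas those of the Acis cisplatin list alone had 34.6% and those of both controls alone 25.5%. Of the 126 downstream peaks, 78 (61.9%) were within 1 kb of a control peak, against 30 of the 103 others at gene starts (29.1%) and 46 of the 521 away from gene starts (8.83%). Examples are SESN2, where the peak began 484 bp into the gene and 245 bp from a control peak, and BIRC6, where it began 442 bp into the gene and 189 bp from one. For 38 of the 229 (16.6%), the nearest start was itself covered by a peak of both control lists. No test was made on these shares, and the number of replicates behind each list cannot be told apart from them.

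**Figure D2:**
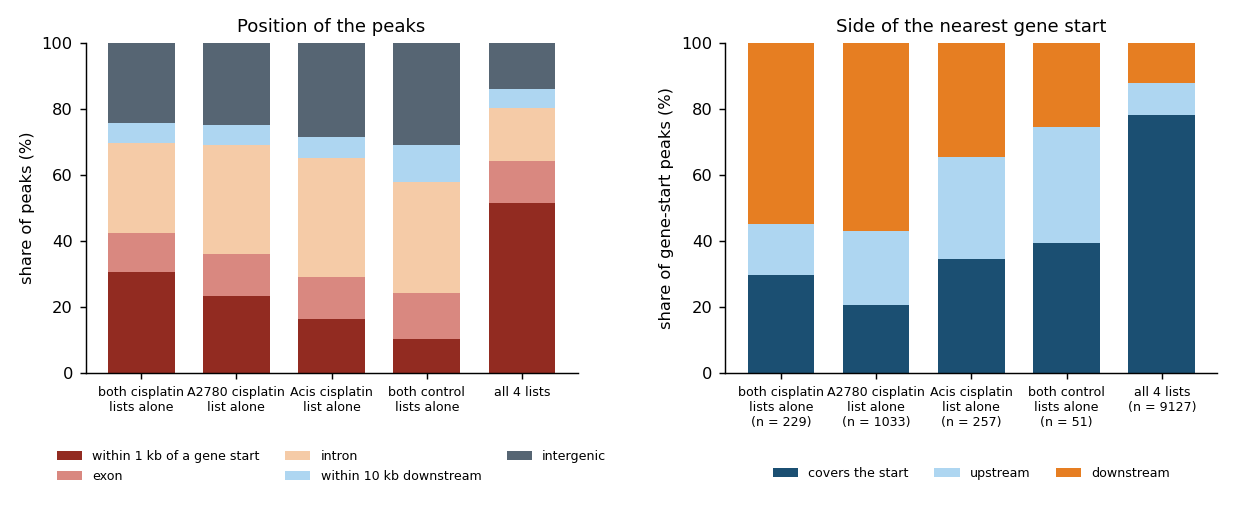
Left, share of peaks (%) by position for the 750 peaks and 4 other sets. Right, for peaks within 1 kb of a gene start, the share (%) that covers the start, lies upstream or lies downstream, with the number of peaks under each bar; 55.0% of the 229 lay downstream, against 12.2% of those in all 4 lists.

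The sequence of the peaks differed between starts and other positions. In the 300 bp around the summit, the median GC content was 54.7% for the 750 peaks, 59.0% for the A2780 cisplatin list and 61.3% for peaks of all 4 lists. It was 64.7% at gene starts and 49.3% elsewhere. The median number of overlapping GG or CC steps, where cisplatin mostly binds, was 70 per 300 bp at gene starts and 42 elsewhere, against 66 and 54 for peaks of all 4 lists. Away from starts the number was also 43 for the A2780 cisplatin list alone, 39 for the Acis cisplatin list alone and 43 for both controls alone, so the lower number was shared by each of these sets, peaks without cisplatin included.

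The AP-1 motif was found in 66 windows (8.8%; 95% Wilson interval 6.98 to 11%), against 6.49% of the A2780 cisplatin list and 5.18% of peaks in all 4 lists. Peaks of both controls alone had a share close to that of the 750, 40 of 490 (8.16%; interval 6.05 to 10.9%). Away from gene starts it was in 55 of 521 (10.6%), against 9.44% for the A2780 cisplatin list alone, 9.42% for the Acis cisplatin list alone, 8.2% for both controls alone and 6.43% for all 4 lists. At gene starts it was in 11 of 229 (4.8%). Over the whole width of the peaks, the order was different, with 11.2% of the 750 peaks, 13.2% of the wider peaks of the A2780 cisplatin list and 13.5% of peaks of both controls alone. Of the 66, 8 had at least 2 AP-1 matches (1.07% of the 750). This share was 0.898% for the A2780 cisplatin list alone, 0.826% for the Acis cisplatin list alone, 0.557% for the whole A2780 cisplatin list and 0.204% for both controls alone. Among the 8 were the GNAO1 peak and a peak in PVT1, a long noncoding RNA gene beside MYC. Another, at the start of ENSG00000277895, lies within TBK1, the gene of a kinase of innate immunity. A peak of chromosome 22 held 7 matches, and its central 150 bp had 28 copies elsewhere.

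The CTCF motif is CC, then AGG after any 3 bases, then GGC after any further base. Away from gene starts it was found in 93 of the 521 windows (17.9%; 95% Wilson interval 14.8 to 21.4%). The whole A2780 cisplatin list had 16.4% there, inside this interval, and peaks of all 4 lists had 19.7%. Peaks of the A2780 cisplatin list alone had 11.7% and those of the Acis cisplatin list alone 10.6%. Among peaks of both controls alone it was in 57 of 439 (interval 10.2 to 16.5%). Over all positions, the share was 14.1% for the 750 peaks and 13.1% for the whole A2780 cisplatin list. Several motifs of promoter factors were rarer than in peaks of all 4 lists, which also held for peaks of the A2780 cisplatin list alone. At gene starts, SP/KLF was in 120 of 229 (52.4%) against 66.7% for all 4 lists, the ETS motif (CCGGAAG) in 12 (5.24%) against 19.4%, NFY in 44 (19.2%) against 37.8%, and the NRF1 motif (GCGC, AT and GCGC in a row) in 0, which allows up to 1.31%, against 2.14%. For the A2780 cisplatin list alone these shares at gene starts were 44.1% for SP/KLF, 4.94% for ETS, 22.4% for NFY and 0.29% for NRF1. For the Acis cisplatin list alone they were 63.4%, 4.28%, 28.0% and 1.56%, and for the 51 gene-start peaks of both controls alone SP/KLF was in 47.1% and NFY in 23.5%. The E-box was in 23 (10.0%) against 9.82%. A pair of adjoining p53 decamers was in 0 of the 750 windows, which allows a share of up to 0.4%. It was in 34 of the 4456 windows of the A2780 cisplatin list alone (0.763%; 95% Wilson interval 0.547 to 1.06%), in 0 of 1574 of the Acis cisplatin list alone and in 0.0113% of all 4 lists. These are matches of letters in a window and were not tested, and no match says nothing about binding of the factor.

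**Figure D3:**
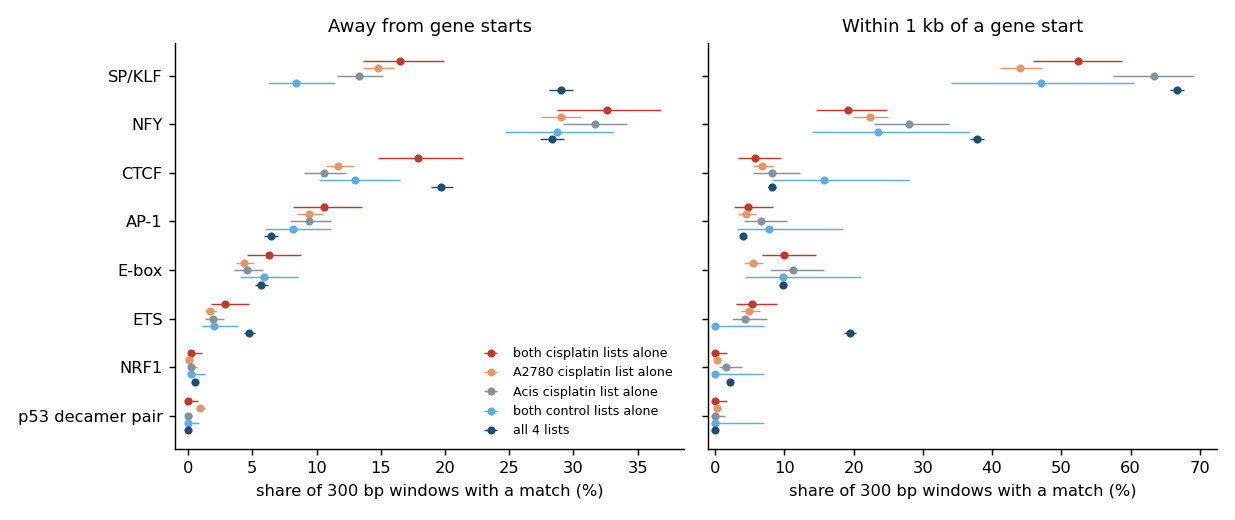
Share of 300 bp windows (%) with a match to 8 of the 18 motifs searched, for peaks away from gene starts (left) and within 1 kb of one (right), by set; points are shares and bars 95% Wilson intervals, which cover counting error only. Away from starts, CTCF was in 17.9% of the peaks of both cisplatin lists alone and in 11.7% of those of the A2780 cisplatin list alone. The share was 16.4% for the whole A2780 cisplatin list.

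The other 10 motifs were also searched. In the 750 windows, the shares beside those of the A2780 cisplatin list were 16.9% and 16% for TEAD (GGAATG), 12.5% and 13.4% for the antioxidant response element (TGACNNNGC), 12.4% and 12.6% for NF-kB, 5.6% and 4.17% for RUNX (TGTGGTT) and 5.07% and 5.35% for YY1 (AAGATGG). The serum response element was in 0.933% and 1.24%, CRE (TGACGTCA) in 0.667% and 1.27%, EGR (GCGTGGGCG) in 0.533% and 0.482%, the heat shock element in 0.4% and 0.317% and the ATF4 element (TGATGCAA) in 0.4% and 0.715%.

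Genes with such a peak at their start changed in both directions after cisplatin, and in A2780 the shares called were near those over all genes. Of 319 gene records of any type with a start within 1 kb of one of the 750 peaks, 259 are in the RNA table and 220 passed edgeR's filter on low counts. In A2780, 55 of the 220 (25%) were higher at an adjusted p under 0.05 in edgeR's quasi-likelihood test and 74 (33.6%) were lower. Over all 15760 tested genes, 21.2% were higher and 28.2% lower, and among the 11063 tested genes with any A2780 cisplatin peak at their start, 23.4% and 31.2% were. Past the fold threshold as well (a log2 fold change of 1 or more in size), 12 (5.45%) were higher and 1 (0.455%) was lower, against 4.14% and 1.48% of all tested genes. Bulk RNA does not tell fewer cells apart from less RNA per cell.

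In Acis, 23 of the 220 (10.5%) were higher and 46 (20.9%) were lower at the adjusted p alone, against 9.35% and 12.4% of all tested genes. Past the fold threshold as well, 4 (1.82%) were higher and 0 lower, against 1.64% and 0.374%. The share of lower genes was 13.7% among genes with any A2780 cisplatin peak at the start, 16.3% for peaks of the A2780 cisplatin list alone and 22.1% (46 of 208) for peaks of the Acis cisplatin list alone. Genes at the starts of peaks of both controls alone had a larger share of lower genes still, 12 of 34 (35.3%). The shares were not tested against each other. Both lines called 16 of the 220 higher and 37 lower, and 3 (SATB1-AS1, SLC5A3 and TMED8, named after their values were seen) changed in opposite directions. These counts have no matching share over all tested genes beside them, so they are not read as a trait of the linked genes. The effect of cisplatin differed between the lines for 42 of the 220 (19.1%; interaction contrast in edgeR, adjusted p under 0.05), against 18.9% of all tested genes.

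**Figure D4:**
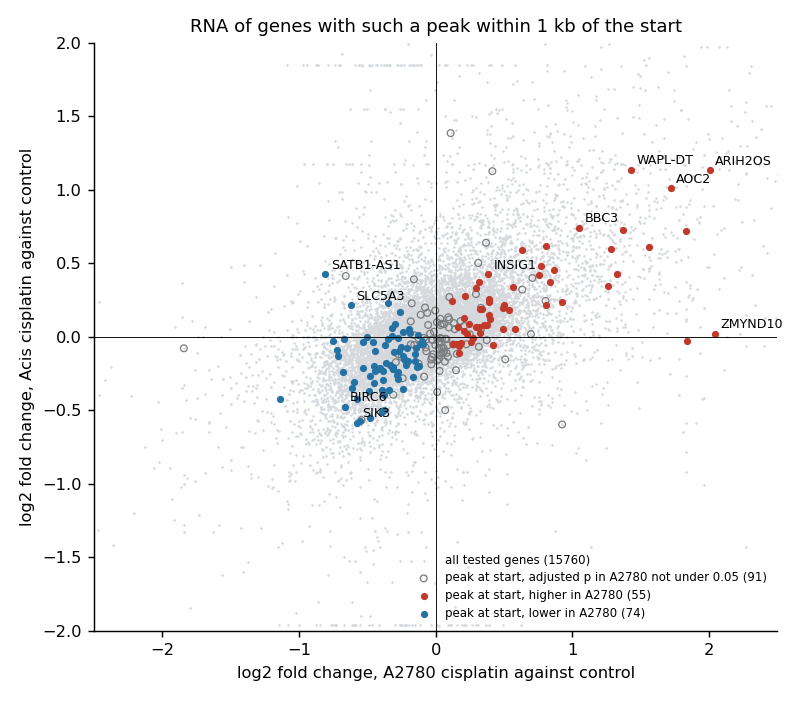
Log2 fold change of RNA after cisplatin in A2780 (x) and Acis (y), with all 15760 tested genes in grey and the 220 with one of the peaks within 1 kb of their start in colour by their call in A2780 at the adjusted p (55 higher, 74 lower, 91 neither). No linked gene and 173 other genes lie outside the axes.

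Lower genes were long and higher genes short, among these genes as among all. In A2780 the 74 lower genes had a median annotated length of 86.5 kb and the 55 higher genes one of 8.36 kb. Over all tested genes the medians were 80.3 kb and 8.7 kb. In Acis the lower and higher genes of the 220 had medians of 101 kb and 11.9 kb, against 110 kb and 13.3 kb over all tested genes. Genes over 100 kb made up 33 of the 74 (44.6%) and 1 of the 55 (1.82%) in A2780. Among all tested genes, they made up 40.3% of the lower and 1.92% of the higher ones. Median length was 24.2 kb for the 220 and 24.3 kb for all tested genes.

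Genes of the p53 pathway were among those with a peak nearby. Of 30 p53 targets listed, 3 had one of the peaks within 10 kb of their start (10.0%), against 1.93% of 19970 protein-coding genes. Only 12197 of those coding genes had enough RNA to be tested, against 29 of the 30 targets, so the shares are not of like genes. The share of the targets near other sets of peaks is not given. CDKN1A encodes the cell cycle inhibitor p21, and its peak, in an exon of CDKN1A isoforms 4003 bp from the annotated start and 797 bp from a control peak, was weak, with a fold enrichment of 2.54 in A2780 and 5.42 in Acis. The 3 A2780 control libraries had 540, 526 and 535 normalized counts of CDKN1A and the cisplatin libraries 951, 960 and 974. In Acis the values were 154, 155 and 150, and 256, 254 and 300. The groups did not overlap in either line, and the change on the log2 scale was 0.85 (standard error, SE, 0.04, adjusted p = 1.27e-14) in A2780 and 0.82 (SE 0.08, adjusted p = 9.56e-09) in Acis by edgeR's quasi-likelihood test.

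BBC3 encodes PUMA, a BH3-only protein that starts apoptosis. Its peak lay 980 bp inside the gene, 3245 bp from any control peak, with a fold enrichment of 4.68 in A2780 and 2.88 in Acis. BBC3 had 124, 127 and 136 normalized counts in the A2780 controls and 274, 258 and 265 after cisplatin, which is 1.05 on the log2 scale (SE 0.09, adjusted p = 9.75e-11, edgeR's quasi-likelihood test). In Acis it had 77.8, 51.3 and 49.2, and 104, 92.0 and 104 after cisplatin, a change of 0.74 (SE 0.13, adjusted p = 0.000158). The groups were apart in both lines, and the Acis control libraries were the more spread. SESN2, a sestrin induced by p53 and by stress, rose less, from 738, 701 and 720 to 854, 814 and 840 in A2780 (log2 fold change 0.22, adjusted p = 0.000138 in edgeR) and from 285, 266 and 239 to 306, 325 and 330 in Acis (0.28, adjusted p = 0.0029).

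Of the 29 p53 targets tested, 18 (62.1%) were higher and 3 (10.3%) lower in A2780 at the adjusted p, against 21.2% and 28.2% of all tested genes. In Acis 19 (65.5%) were higher and 1 (3.45%) lower, against 9.35% and 12.4%. The median log2 fold changes of the list were 0.24 and 0.23, against medians of -0.01 and 0.01 over all tested genes. LINC-PINT, a long noncoding RNA known to be induced by p53, was the 1 gene with 3 of the 750 peaks in its body or within 10 kb of it, while 27 genes had 2. It spans chr7:130791264-131110176. Its 3 peaks had fold enrichments of 4.17, 3.15 and 3.1 in A2780, and 5.33, 3.01 and 12.2 in Acis. The last of these, 283 bp wide in A2780, overlapped an Acis peak from 130912164 to 130913823 with a -log10 q of 493, the highest of all 750. This value and the fold enrichment of 12.2 are those of the whole, wider Acis peak. The rule kept only the A2780 peak clear of the control lists, so the rest of the Acis peak may overlap a control peak. RNA of LINC-PINT was lower after cisplatin. A2780 control libraries had 202, 180 and 176 normalized counts and cisplatin libraries 151, 160 and 156. In Acis they had 237, 276 and 291, and 228, 229 and 209. The log2 fold changes were -0.26 (SE 0.09, adjusted p = 0.0152) and -0.27 (SE 0.08, adjusted p = 0.0108) in edgeR's quasi-likelihood test. With DESeq2 neither passed the threshold.

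Immediate-early genes answer growth and stress signals within minutes to hours. Of 55 listed, 4 had one of the peaks within 10 kb (7.27%), against 1.93% of protein-coding genes. As for the p53 targets, this sets mostly tested genes against a base with many untested ones. Of the 51 immediate-early genes tested, 45 (88.2%) were higher and 3 (5.88%) lower in A2780, against 21.2% and 28.2% of all tested genes. In Acis 36 (70.6%) were higher and 3 (5.88%) lower, against 9.35% and 12.4%. KLF10, a zinc finger repressor with a peak over its start, rose from 364, 421 and 393 to 533, 542 and 581 normalized counts in A2780 (log2 fold change 0.49, SE 0.06, adjusted p = 1.17e-07 in edgeR). In Acis it had 528, 535 and 583, and 643, 650 and 587 after cisplatin, a change of 0.19 (adjusted p = 0.0111). Its groups were apart in both lines. ZFP36L2, which binds AU-rich elements and destabilizes mRNA, rose from 504, 522 and 552 to 687, 721 and 659 in A2780 (0.39, adjusted p = 1.39e-07) and from 803, 785 and 739 to 921, 908 and 916 in Acis (0.24, adjusted p = 0.000149).

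DUSP6, the phosphatase of ERK kinases, went the other way. Its peak lay 1661 bp from the start, and its counts were 925, 980 and 977 in A2780 control and 867, 914 and 849 in cisplatin libraries, and 1390, 1390 and 1370 against 1280, 1270 and 1270 in Acis. The log2 fold changes were -0.13 (adjusted p = 0.00581) and -0.12 (adjusted p = 0.0134) in edgeR. With total counts as library size they were -0.01 and -0.06 and passed no threshold. DUSP4, a phosphatase of the same family with a peak over its start, had 0 to 13.8 normalized counts and was not tested. Of the other lists, 1 of 30 heat shock and integrated stress genes (SESN2 again), 1 of 30 nucleotide excision repair genes and 0 of 55 replication-dependent histone genes had a peak within 10 kb. The repair gene was RAD23B, a partner of the damage sensor XPC, with 1070, 1110 and 1150 normalized counts in A2780 control libraries and 993, 1080 and 1010 after cisplatin. These groups overlapped, and its call (log2 fold change -0.11, adjusted p = 0.0187 in edgeR) was lost with DESeq2 and with total counts as library size. In Acis the change was -0.05 (adjusted p = 0.403).

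The counts called in those 3 lists are read against all tested genes, of which 21.2% were higher and 28.2% lower in A2780 and 9.35% and 12.4% in Acis. The 29 tested heat shock and integrated stress genes had 17 higher (58.6%) and 1 lower (3.45%) in A2780 and 9 (31%) and 2 (6.9%) in Acis. The 45 tested histone genes, which have near-identical copies, had 1 higher (2.22%) and 30 lower (66.7%) in A2780 and 0 and 37 (82.2%) in Acis. The 29 tested repair genes had 4 higher (13.8%) and 8 lower (27.6%) in A2780 and 2 (6.9%) each way in Acis. With so few genes, the shares of the repair list are not read as different from those of all tested genes. None of the 3 lists was tested as a set.

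**Figure D5:**
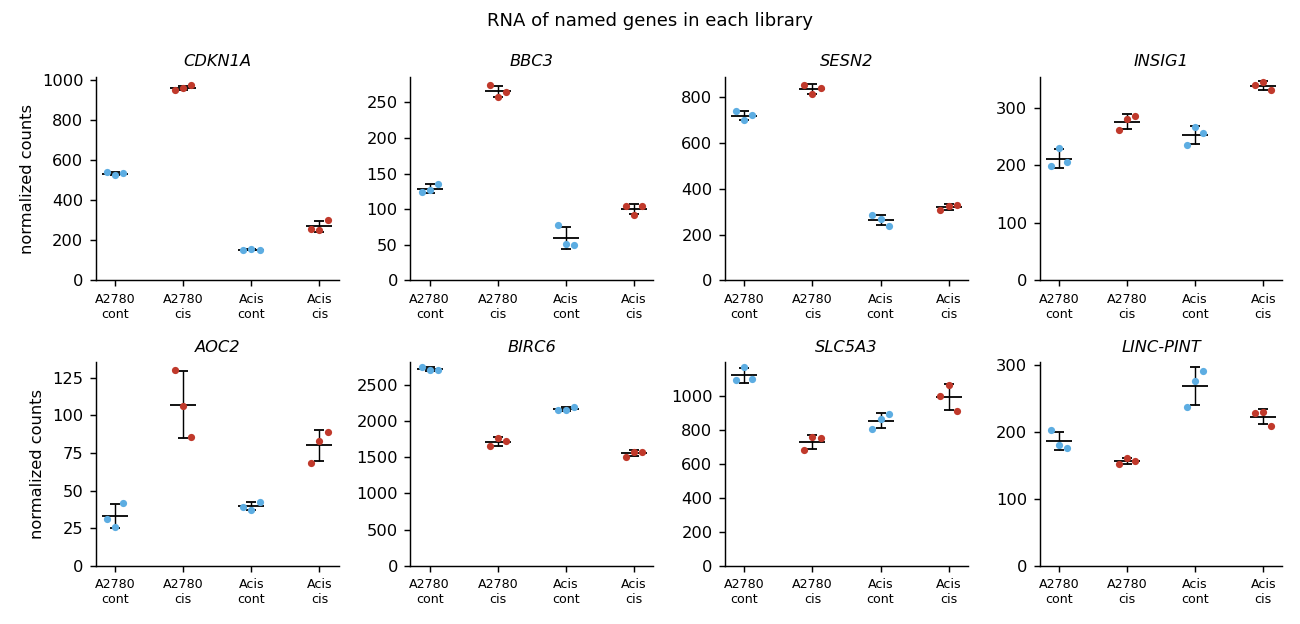
Normalized counts (linear axis from 0) of 8 genes with one of the peaks at or near the start or in the gene, for each library (points, 3 per group), with mean and SD (bars); blue is control (cont) and red cisplatin (cis). SLC5A3 was lower after cisplatin in A2780 and higher in Acis, and LINC-PINT was lower in both.

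Among the 8 higher genes with the smallest adjusted p in A2780, 4 start beside or across from another gene. WAPL-DT (ENSG00000227896), which starts beside WAPL, the cohesin release factor, rose from 47.8, 43.5 and 41.8 to 131, 117 and 112 normalized counts in A2780 and from 29.9, 28.9 and 44.6 to 73.3, 77.1 and 76.0 in Acis. Its log2 fold changes were 1.43 (SE 0.12, adjusted p = 3e-10) and 1.14 (SE 0.15, adjusted p = 2.77e-06) in edgeR. AOC2, an amine oxidase gene beside the proteasome activator gene PSME3, rose from 30.9, 26.1 and 41.8 to 130, 106 and 85.8 in A2780, a change of 1.72 (SE 0.17, adjusted p = 2.57e-09). In Acis it rose from 39.4, 37.4 and 42.4 to 68.4, 83.1 and 88.8, a change of 1.01 (SE 0.18, adjusted p = 9.96e-05).

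ARIH2OS, antisense to the ubiquitin ligase gene ARIH2, rose from 7.5, 12.6 and 5.36 to 34.8, 33.1 and 36.5 in A2780 (log2 fold change 2.01, SE 0.25, adjusted p = 1.69e-07 in edgeR). In Acis it had 5.33, 7.49 and 5.72, and 11.6, 12.9 and 16.8 after cisplatin (1.13, SE 0.35, adjusted p = 0.0218). MAPKAPK5-AS1 rose from 95.6, 86.9 and 107 to 163, 166 and 178 in A2780 (0.81) and from 85.3, 67.4 and 88.1 to 120, 127 and 122 in Acis (0.62). In all 4 genes every cisplatin library was above every control library in both lines. Reads were counted by strand, so the antisense genes were kept apart from their partners. Counting by strand does not separate a gene from a neighbour on its own strand. Of the 246 peaks with a linked gene record, 64 (26.0%) had at least 2. Of the 12 linked genes higher past both thresholds in A2780, 6 (50%) were lncRNA genes and 4 (33.3%) protein-coding, a make-up near that of the 652 tested genes that passed both, with 49.1% and 38.3%. The 4 past both thresholds in Acis were AOC2, ARIH2OS, WAPL-DT and LINC01126, the last named after its values were seen. The 1 lower past both in A2780 was NOTCH2NLC, with 8.43, 15.5 and 12.9 against 4.71, 7.78 and 3.95 normalized counts, which has near-identical copies and is uncertain.

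Smaller rises were found at INSIG1, UNC119B and KCNQ1OT1 in both lines and at OAZ1 in A2780. INSIG1, a brake on cholesterol synthesis in the endoplasmic reticulum, rose from 199, 230 and 206 to 262, 280 and 286 in A2780 (log2 fold change 0.38, adjusted p = 4.75e-05 in edgeR) and from 235, 266 and 256 to 340, 345 and 331 in Acis (0.43, adjusted p = 1.73e-05). Its peak lay 375 bp from the start, upstream, within the divergent transcript INSIG1-DT, and had fold enrichments of 4.13 and 4.47. OAZ1, the antizyme that limits polyamine synthesis, rose in A2780 from 450, 497 and 498 to 640, 618 and 612 (0.37, adjusted p = 2.82e-07). In Acis it had 554, 543 and 522, and 568, 562 and 584 after cisplatin (0.08, adjusted p = 0.282). UNC119B, a lipid-binding trafficking factor, and KCNQ1OT1, the imprinted noncoding RNA of the KCNQ1 locus, had changes of 0.32 and 0.30 in A2780 and of 0.37 and 0.33 in Acis, with groups apart in each line.

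Of the 8 lower genes with the smallest adjusted p in A2780, 6 also fell in Acis. BIRC6, a ubiquitin ligase that inhibits apoptosis, fell from 2750, 2710 and 2710 to 1650, 1770 and 1730 normalized counts in A2780 and from 2150, 2150 and 2200 to 1510, 1580 and 1580 in Acis. Its log2 fold changes were -0.67 (SE 0.03, adjusted p = 1.05e-15) and -0.48 (SE 0.03, adjusted p = 1.31e-11) in edgeR. CHD7, a chromatin remodeller, fell by 0.55 and 0.57, GREB1L by 0.39 and 0.51, and PTCH1, the Hedgehog receptor, by 0.49 and 0.37 on the log2 scale. In these 4 genes every cisplatin library was below every control library in both lines.

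PDS5B, a regulator of cohesin, fell from 923, 908 and 981 to 593, 637 and 656 in A2780 and from 482, 544 and 511 to 362, 418 and 367 in Acis. USP25, a deubiquitinase, fell by 0.61 and 0.35, and SIK3, a salt-inducible kinase, by 0.58 and 0.59 on the log2 scale. The peaks of these genes had fold enrichments of 5.39 to 7.53 in A2780, so that peaks listed only after cisplatin stood at genes with less RNA as at genes with more. ONECUT2, a homeodomain factor with a peak over its start, fell from 468, 452 and 466 to 295, 267 and 276 in A2780 (log2 fold change -0.72, adjusted p = 5.22e-11 in edgeR). In Acis it was low throughout, with 8.88 to 17.8 normalized counts, although the fold enrichment of its peak was 11.2 there and 6.11 in A2780.

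SLC5A3, the sodium-coupled transporter of the osmolyte myo-inositol, changed in opposite directions. It had 1090, 1170 and 1100 normalized counts in A2780 control and 682, 756 and 750 in cisplatin libraries (log2 fold change -0.62, SE 0.05, adjusted p = 1.09e-10 in edgeR). In Acis it had 806, 864 and 889, and 1000, 1060 and 908 after cisplatin (0.21, SE 0.05, adjusted p = 0.00287). No groups overlapped. Its peak covered the start, 43071 bp from any control peak, with a fold enrichment of 11.5 in A2780 and 15.2 in Acis. SLC5A3 lies within the annotated span of MRPS6 on the same strand, so reads on shared stretches are uncertain.

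With a wider link of 10 kb, 808 gene records were reached, of which 393 were tested. In A2780, 106 (27.0%) were higher and 109 (27.7%) lower at the adjusted p, against 21.2% and 28.2% of all tested genes. In Acis 39 (9.92%) were higher and 68 (17.3%) lower, against 9.35% and 12.4%. Among 405 tested genes whose body or start overlapped a peak, the lower share was the largest of the links tried, with 163 (40.2%) lower and 66 (16.3%) higher in A2780 and 106 (26.2%) and 29 (7.16%) in Acis. The shares of all tested genes beside these are the same as for the wider link. Genes linked by their body are reached in proportion to their length. The split between directions depended on scaling. With total counts as library size, under which the median over all tested genes moved on the log2 scale to 0.10 (from -0.01) in A2780 and to 0.07 (from 0.01) in Acis, 85 of the 220 (38.6%) were higher and 53 (24.1%) lower in A2780, against 33.6% and 19.4% of all tested genes. In Acis 38 (17.3%) were higher and 35 (15.9%) lower, against 14.9% and 8.95%, so that the split moved among all genes as among the linked ones.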

How the data were processed

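ATAC-seq and RNA-seq of A2780 and Acis cells with and without cisplatin were used. XR-seq was not analysed here. Per the methods of the authors, ATAC-seq reads were aligned to hg38 with Bowtie2, allowing up to 10 alignments per read, reads of chromosome Y and the mitochondrion and duplicates were removed, and MACS2 called peaks per replicate and on pooled reads. Peaks that overlapped over more than 50% between all replicates were kept. The deposited lists give for each peak a fold enrichment over the local background, a ratio computed by MACS2, and its -log10 p and -log10 q, together with the position of the summit. RNA counts were deposited raw by the authors after STAR alignment, removal of duplicates and stranded htseq-count.

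Overlaps were computed with bedtools 2.31.1, positions with GENCODE 44 (which lacks 109 of the 23622 gene identifiers of the count table), motifs on both strands in 300 bp around the summit, and copies with minimap2 2.31. GENCODE and the lists share hg38. Counts were tested in edgeR 4.0.16 (quasi-likelihood test, TMM, default filter, 4 groups over 12 libraries, Benjamini-Hochberg adjustment over 15760 genes). DESeq2 1.42.0 was an alternative. Normalized counts are TMM-scaled to the mean library. On simulated data, 96% of 200 genes changed by 2-fold were recovered for A2780 and 98.5% for Acis over 15422 genes, with 4% and 4.37% false calls.

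The peaks, gene lists, motifs and tests were chosen with earlier results of these data known. The genes named were those of the lists with a start within 10 kb of a peak, the 8 higher and 8 lower linked genes with the smallest adjusted p in A2780 and the 5 and 5 in Acis, the nearest starts of the 10 strongest peaks and genes with at least 3 peaks. One of the 10 strongest peaks is not reported here. Per the methods of the authors, 3 wells of cells were prepared per condition for RNA. No source used here says that the wells came from separate cultures, so p-values measure the spread between these libraries, which may be technical. Of 12 pairs of replicates, 6 lay closer together than counting noise predicts (ratios of 0.731 to 1.53 over all pairs). Intervals cover counting error only. The alternatives tried covered the overlap rule, the strength of peaks, the distance to genes and to control peaks, scaling, filters, the tool, left-out libraries and merged replicates.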

Additional observations from a re-analysis of the deposited data

Results flagged for a closer look

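For 5 of the genes named, the effect of cisplatin differed between the lines by the interaction contrast in edgeR at an adjusted p under 0.05. The difference, as the log2 fold change in Acis minus that in A2780, was 0.83 for SLC5A3 (adjusted p = 2.47e-08), which fell in A2780 and rose in Acis. It was -0.30 for KLF10 (adjusted p = 0.0109) and -0.29 for OAZ1 (adjusted p = 0.00309), both higher in A2780. It was 0.19 for BIRC6 (adjusted p = 0.00238) and 0.26 for USP25 (adjusted p = 0.0132), both lower in each line and less so in Acis. No group had more than 3 libraries, so no single library could be tested for standing apart.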

How the results depend on the processing

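The 750 peaks became 383 when lists were limited to the 20000 peaks with the highest -log10 q, and the other 5 rules of overlap or strength kept the number within 1.5 times. The share within 1 kb of a gene start was 42.1% with the start of any transcript, 50.8% within 10 kb, 24.7% for peaks over 500 bp from every control peak and 34.5% for peaks without another copy of the window (chosen after seeing the data, as was the merging of replicates). The AP-1 share was 11.2% over the whole peak. Linked gene records numbered 808 within 10 kb. The 13 linked genes past both thresholds in A2780 became 27 with the 10 kb link, 8 with peaks of a -log10 q of at least 10 in both lists and 8 with peaks over 500 bp from a control peak. In Acis, 4 became 2 with DESeq2 and 1 with peaks over 500 bp from a control peak. At the adjusted p alone, the higher genes in A2780 were 85 with total counts as library size, 106 with the 10 kb link and 31 with the stronger peaks, and the lower genes 163 with gene bodies and 49 away from control peaks. In Acis the higher genes were 38 with total counts, 13 with DESeq2, 39 with the 10 kb link and 13 away from control peaks, and the lower genes 106 with gene bodies and 29 with the stronger peaks. Links to more or fewer peaks and genes change these counts by construction, and the cause of the others was not tested.

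When single libraries were left out, 14 to 17 linked genes passed both thresholds in A2780 and 2 to 5 in Acis, with 2 without replicate 3 of Acis cisplatin. At the adjusted p alone, the higher linked genes were 51 to 58 in A2780 and 18 to 23 in Acis, and the lower ones 66 to 74 and 35 to 45. The replicate numbers did not pair the libraries (correlations of -0.176 to 0.246). With them as a replicate block, 13 and 4 linked genes passed both thresholds, 55 and 26 were higher and 75 and 48 lower at the adjusted p. With the closest replicates merged, 51 and 16 were higher and 65 and 36 lower. RAD23B had a log2 fold change in A2780 of 0.00, on the other side of 0, with total counts as library size. Of 600 values of 25 named genes under alternatives, 573 kept their direction and their side of the threshold, 25 lost the call, 1 gained it and 1 changed direction. The calls lost were those of RAD23B, DUSP6 and LINC-PINT in A2780 and of DUSP6, KLF10, ARIH2OS and LINC-PINT in Acis, and OAZ1 gained one in Acis. The depth of each peak list is unknown beyond the minimum that the authors give, so no limit of detection is given for a peak.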
